A study of Mus musculus with 2 samples.

Results

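The 500 regions described here are stretches of chromatin that, within the Nfia/b/x-deficient library, were found more often in neurons than in other cells, and that had the highest accessibility in deficient relative to control neurons. They were taken from 107377 regions scored in single nuclei. A region entered when it had at least 50 detections in neurons of both libraries together, a detection being a region found open in a cell. This left 62373 regions (58.1%). Levels are counts per 1000000 detections of the same cells (CPM), and differences between single regions are on the log2(CPM + 5) scale, which understates the change of regions with low levels. A region counted as neuronal when deficient neurons exceeded all other deficient cells by at least 0.5 on that scale, which held for 6745 regions (10.8% of those tested). The 500 with the highest value of deficient minus control neurons are the members, and the 6245 others are called the other neuronal regions. The neuron values therefore chose the members and are given as a description.

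Mice of both genotypes carried Rax-CreER, an inducible Cre recombinase driven by Rax, and CAG-lsl-Sun1-GFP, a nuclear envelope tag that Cre switches on. The deficient mice carried in addition the floxed alleles Nfialox/lox, Nfiblox/lox and Nfixlox/lox, which the control mice lacked. The labels do not give when Cre was induced. Libraries were made at postnatal day 8 from GFP-sorted cells of the mediobasal hypothalamus. Each genotype had 1 library, so there is no replicate, no test between genotypes and no p-value, and the sources used here do not give the number of animals behind each library. Intervals are exact 95% intervals for counting error only; they leave out variation between cells and between animals. The study asked whether these transcription factors limit the ability of tanycytes to form neurons.

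Tanycytes line the floor and lower walls of the third ventricle and resemble the radial glia of the embryo, and Rax is a homeobox gene active in them. NFIA, NFIB and NFIX belong to the nuclear factor I family, which binds DNA as dimers and is known for its part in the formation and maturation of glia in the developing brain. Open chromatin marks promoters and enhancers that factors can reach, and the set of open enhancers differs strongly between cell types and between immature and mature cells of a type. The regions carry row numbers that the files do not pair with positions or genes, so no sequence, nearby gene or motif is given. For the same reason neither the deletion of the floxed genes nor the markers of any cell type could be checked, and cell types are those the authors named.

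The deficient library held 13337 cells with a median of 4042 detections, and the control library held 8948 cells with a median of 4549.5. Neurons numbered 2520 in the deficient library (median 3305 detections) and 882 in the control library (median 3343). The authors' annotation names 9 types, and 204 barcodes occurred in both libraries, of which 2 belonged to neurons in both. Against type profiles made without the cell itself, within its library, 83.4% of deficient and 78.8% of control neurons were given the neuron profile.

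Together the 500 regions took 8.24 of every 1000 detections in deficient neurons (8.18 to 8.30) and 2.43 in control neurons (2.38 to 2.48), a ratio of 3.39 (3.32 to 3.47). These sums rest on 81079 detections in deficient and 9138 in control neurons. The median member was found in 5.83% of deficient neurons and in 1.64% of control neurons. Members ranged from 2.06 to 22.1% of deficient neurons and from 0 to 10.8% of control neurons. All 500 had a higher CPM in deficient neurons, as the rule requires, where 55.1% of all regions tested did. Of these 342 differed by 2-fold or more on the log2(CPM + 5) scale, where 0.976% of all 62373 regions did. The median difference was 1.08 on that scale and the range was 0.91 to 2.01. The last member inside the threshold had 0.9095 and the first region outside it had 0.9088, with 11.4 and 38.8 CPM in deficient neurons, so the members run on into the next regions without a gap.

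**Figure D1:**
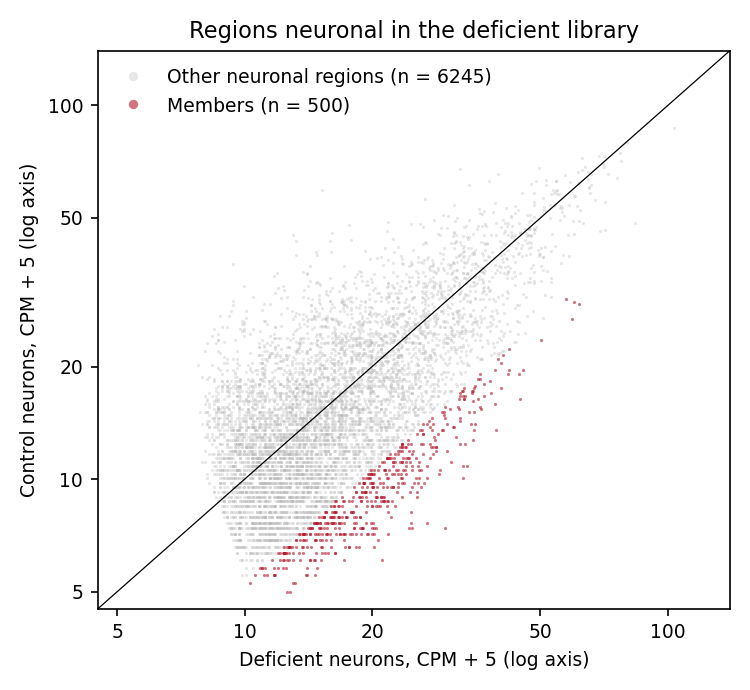
Each point is 1 of the 6745 regions that are neuronal in the deficient library, with its level in deficient neurons on the horizontal axis and in control neurons on the vertical axis, both as CPM + 5 on log axes; the line marks equal levels. The 500 members (red) form the lower right edge of a continuous cloud, because they were chosen by their distance from the line.

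The member with the highest value, region 96961, was found in 243 of 2520 deficient neurons (9.64%, 8.52 to 10.9%) and in 9 of 882 control neurons (1.02%, 0.468 to 1.93%). That is 24.7 CPM in deficient neurons (21.7 to 28.0) and 2.39 CPM in control neurons (1.09 to 4.54), a ratio of 10.3 (5.35 to 22.8). Outside neurons this region was also higher in the deficient library: it had 10.6 CPM in deficient and 2.08 CPM in control alpha2 tanycytes, 8.40 CPM in deficient and 2.03 CPM in control beta2 tanycytes, and 28.8 CPM in deficient and 7.82 CPM in control OPCs. Its CPM was higher in all 9 types of the deficient library. The intervals of the libraries did not overlap in neurons, OPCs and the alpha and beta tanycytes. They overlapped in astrocytes, ependymal cells and proliferating tanycytes, where 3, 2 and 1 control cells held the region.

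Region 10600, the second highest, was found in 216 deficient neurons (22.0 CPM, 19.1 to 25.1) and in 10 control neurons (2.66 CPM, 1.27 to 4.89), a ratio of 8.26 (4.40 to 17.5). It was likewise higher in all 9 types of the deficient library, by less outside neurons. All tanycytes together are the alpha1, alpha2, beta1, beta2 and proliferating cells. In these the region had 10.6 CPM in the deficient (9.73 to 11.6) and 7.33 CPM in the control library (6.55 to 8.18). Proliferating tanycytes had 15.2 CPM in the deficient library, and none of the 63 control cells held it (0 to 11.5 CPM). Both in all tanycytes and in proliferating ones the intervals of the libraries did not overlap. In the other 7 types the intervals of both libraries overlapped: alpha2 tanycytes, for example, had 9.32 CPM in the deficient (8.19 to 10.6) and 7.15 CPM in the control library (6.20 to 8.21), and astrocytes had 19.5 CPM in the deficient and 17.1 CPM in the control library. In the control library, neurons had the lowest level of this region among the types with any detection, whereas in the deficient library neurons were second only to OPCs.

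At the other end of abundance, the member found most often was open in 557 deficient neurons (22.1%, 20.5 to 23.8%) and in 92 control neurons (10.4%, 8.49 to 12.6%), a ratio of 2.31 (1.85 to 2.92). The member at the middle of the ranking was found in 66 deficient neurons and in 2 control neurons, so its ratio of 12.6 has an interval from 3.36 to 106. Counts this low recurred among the members: 24 had at most 3 detections in control neurons, and 2 had none. The members with none were found in 77 and 75 deficient neurons. With 3 detections over the 882 control neurons taken as the limit that a count of 0 allows, the share there was up to 0.340% and the level up to 0.797 CPM, and on that limit these members were at least 9.81-fold and 9.56-fold higher in deficient neurons. The exact 95% intervals used for the other members are wider, since they are two-sided: they reach 0.980 CPM in control neurons and begin at ratios of 7.79 and 7.58. Ratios of single members are therefore loose, and the sums carry the precision.

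The rule picks extremes of counting error along with other differences between the libraries. It was therefore also applied to a random part of the cells of each type and library and measured in the remaining cells. The 500 regions chosen that way had a log2 ratio of 1.90 in the neurons that chose them and 1.33 (1.29 to 1.37) in the remaining neurons, at 8.25 per 1000 detections in deficient and 3.29 in control neurons. In the remaining neurons 497 of the 500 were higher in the deficient library, where 54.8% of all regions tested were. There, 194 were higher by 2-fold or more, where 1.7% of all regions tested were. With the parts exchanged the ratio was 1.43 (1.39 to 1.47), and 500 of 500 were higher, against 53.7% of all regions tested. Each part shared 336 and 320 of its regions with the members, and 220 regions were chosen by both. Which regions enter the 500 thus varied more than the direction of their difference. This measures the repeat within the same pair of libraries and not between animals.

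The order of the cell types differed between the libraries. The rule asked for high values in deficient neurons and favoured low ones in control neurons, so the place of neurons is a description. In the deficient library neurons had the highest level of the 500 regions, 1.33 times that of OPCs (6.20 per 1000 detections), 1.74 times that of proliferating tanycytes (4.74) and 2.42 times that of alpha2 tanycytes (3.41). Beta2 tanycytes had the lowest level (2.22). In the control library the highest level was in OPCs, at 3.84 per 1000 (3.74 to 3.95), and neurons followed with 2.43, above the other 7 types. Control neurons were at 0.632 of the OPC level, and at 1.08 times the level of astrocytes (2.25) and 1.34 times that of all tanycytes (1.81). Alpha1 (2.01), proliferating (1.95), ependymal (1.93) and alpha2 cells (1.88) had neighbouring values; the intervals of proliferating and ependymal cells overlapped those of both other types. Beta1 (1.74) and beta2 tanycytes (1.38) had the lowest levels. Control OPCs also stood above control neurons when the regions were chosen in a part of the cells. In the remaining cells OPCs had 6.63 per 1000 in the deficient and 4.05 in the control library. Neurons had 8.25 in the deficient and 3.29 in the control library. That choice still favoured regions low in control neurons, so this order too is a description. At the other neuronal regions, control neurons were at 1.63 times the OPC level.

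**Figure D2:**
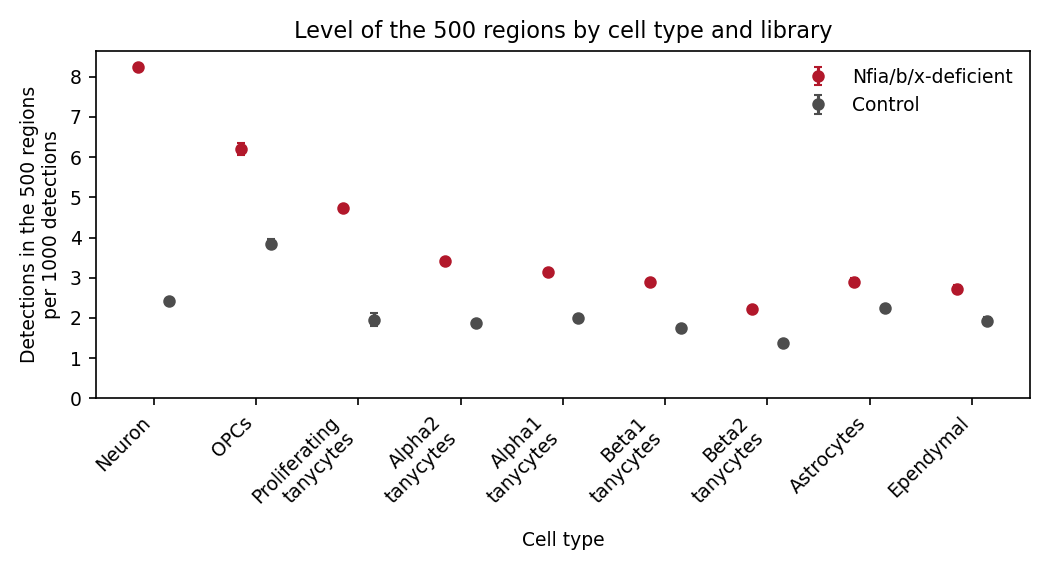
Detections in the 500 member regions per 1000 detections, by cell type, for deficient (red) and control (grey) cells, with exact 95% intervals for counting error. Deficient neurons stand highest at 8.24, while among control cells OPCs (3.84) stand above neurons (2.43), and all 9 types are higher in the deficient library.

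The share of members that were neuronal in the control library was near the background. In the control library 74 of the 500 (14.8%) passed the measure of neuronal openness, where 15% of all regions tested did, and 4606 of the 6245 other neuronal regions (73.8%) did. Control neurons lay below the other control cells at 167 members (33.4%), where 46.2% of all regions tested and 2.35% of the other neuronal regions did. The median excess of neurons over other cells was 0.81 in the deficient library, which the rule used, and 0.13 in the control library, where the low control neuron values favoured by the rule enter too. Among other neuronal regions the medians were 0.71 in the deficient and 0.83 in the control library.

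OPCs, the precursors of myelinating oligodendrocytes, were the type outside neurons that held these regions most often. OPCs exceeded all other cells by 0.5 or more at 153 members in the deficient library, where 11.7% of all regions tested did, and at 182 members in the control library (36.4%), where 11.1% of all regions tested did. Among the other neuronal regions the shares were 27.0% in the deficient and 28.4% in the control library, so an OPC signal was not particular to the members. Of the 7 types other than neurons with at least 900000 detections in each library, OPCs had the highest level at 279 members in the deficient library (55.8%), where 23.7% of all regions tested and 51.2% of the other neuronal regions did. In the control library OPCs did so at 235 members (47.0%), where 22.8% of all regions tested and 48.6% of the other neuronal regions did. Members and other neuronal regions were thus alike in this. Neurons stood above all 7 at 367 members in the deficient library (73.4%), where 20% of all regions tested and 74.9% of the other neuronal regions did. In the control library they did so at 88 members (17.6%), where 24.5% of all regions tested and 69.9% of the other neuronal regions did. By whole profiles, 12.8% of deficient and 2.96% of control OPCs were given the neuron profile. Within the deficient library the next highest share outside neurons was 2.69%, in astrocytes. Within the control library it was 1.59%, in the 63 proliferating tanycytes. Whether such OPCs resemble neurons or are mislabelled or mixed nuclei was not tested. Among OPCs given the OPC profile the members had a log2 ratio of 0.47 (0.41 to 0.54; 182 deficient and 207 control cells), against 0.69 (0.64 to 0.74) in all OPCs. The profiles were built on all regions, members included, so this choice of OPCs was not independent of the members.

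Outside neurons, the 500 regions took a larger share of detections in every type of the deficient library. In all tanycytes together they took 3.32 per 1000 in the deficient (3.30 to 3.33) and 1.81 in the control library (1.80 to 1.82), a log2 ratio of 0.87 (0.86 to 0.89). This pool holds 1033 deficient but only 63 control proliferating tanycytes. In the deficient library these had the highest level among tanycytes (4.74 per 1000), so the pooled ratio includes this difference in make-up. Control cells other than neurons do not enter the rule, and deficient ones enter only through the filter on neuronal openness, which favours low values there. All 500 members had at least 50 detections in tanycytes, and 497 of them were higher in deficient tanycytes. With that minimum, 59.6% of all regions and 83.7% of the other neuronal regions were higher there. The median difference was 0.39 on the log2(CPM + 5) scale, and 7 members differed by 2-fold or more, where 0.0326% of all regions did. On that scale, which understates the change at low levels, most members thus differed by a small amount in the same direction. Their summed share in all tanycytes was 1.83 times that of the control library.

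By type, the largest log2 ratio outside neurons was in proliferating tanycytes, a class named for dividing cells, at 1.28 (1.16 to 1.40), with 4.74 per 1000 in the deficient and 1.95 in the control library. That control value rests on 627 detections from 63 cells. Alpha2 tanycytes followed with 0.86 (0.84 to 0.87), and 492 of the 500 members were higher in deficient alpha2 cells. With 50 detections there, 58.4% of all regions and 81.0% of the other neuronal regions were higher. Beta1 tanycytes had 0.73 (0.70 to 0.76), beta2 tanycytes 0.69 (0.65 to 0.73), OPCs 0.69 (0.64 to 0.74) and alpha1 tanycytes 0.65 (0.60 to 0.70). The smallest ratios were those of ependymal cells, at 0.49 (0.41 to 0.58), and astrocytes, at 0.36 (0.29 to 0.43). The intervals of beta1, beta2, OPC and alpha1 cells overlapped, so these 4 types are not ordered.

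The ratios of several types depended on which cells were kept. The nearest profiles were built on all regions, members included, so this choice of cells was not independent of the members. Among cells whose nearest profile was that of their own type, astrocytes had 0.054 (-0.054 to 0.16; 106 deficient and 210 control cells) and ependymal cells 0.17 (-0.046 to 0.39; 152 deficient and 23 control cells), so that both intervals included 0. Alpha1 tanycytes then had 0.33 (0.25 to 0.40) and OPCs the 0.47 given above, both below their values in all cells with intervals that did not overlap. Beta1 (0.58 to 0.66) and beta2 tanycytes (0.57 to 0.67) had 0.62 each, while alpha2 tanycytes had 0.87 (0.85 to 0.88) and neurons 1.93 (1.89 to 1.96). No control proliferating cell was given its own type.

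The other neuronal regions served as the nearest comparison. As a set they were level in neurons, with 78.0 per 1000 in the deficient and 77.1 in the control library (log2 ratio 0.018, 0.011 to 0.024), a ratio of -0.013 when cells were thinned to equal depth. In all tanycytes they had a log2 ratio of 0.34 (0.33 to 0.34), compared with 0.87 for the members. The members exceeded them in all 9 types, with intervals that did not overlap. The opposite extreme was taken by the mirrored rule: of the regions neuronal in the control library, the 500 with the lowest deficient minus control value in neurons. These shared 0 regions with the members. They had 1.83 per 1000 in deficient and 9.38 in control neurons by choice, and log2 ratios below 0 in all 8 other types, from -1.43 in proliferating tanycytes to -0.34 in astrocytes. In both sets the ratio outside neurons was farthest from 0 in proliferating tanycytes and nearest to 0 in astrocytes. The same held for the other neuronal regions, at 0.51 in proliferating tanycytes and 0.17 in astrocytes, so this order was not particular to the extremes.

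**Figure D3:**
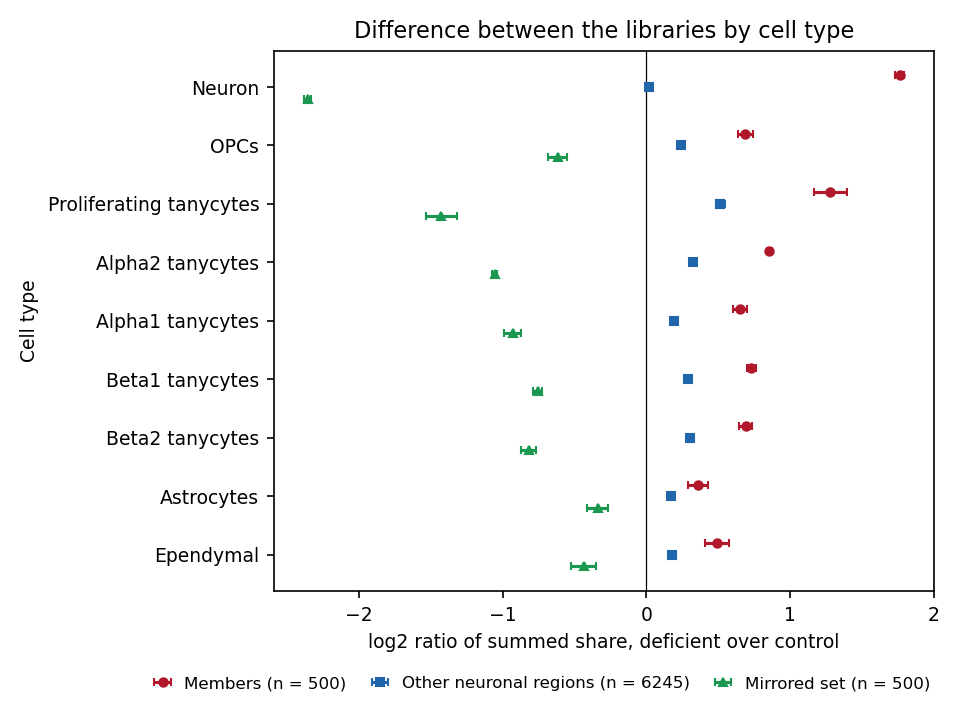
The log2 ratio of the summed share of detections, deficient over control, for the members (red circles), the other neuronal regions (blue squares) and the mirrored set (green triangles) in each cell type, with exact 95% intervals. Neuron values chose the members and the mirrored set; in the other types the members lie between 0.36 and 1.28, and the mirrored set between -1.43 and -0.34.

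The breadth of the difference was also seen region by region. Of the 500 members, 149 (29.8%) had a higher CPM in all 9 types of the deficient library and 180 (36.0%) in 8 of them. Only 3 were higher in as few as 3 types, and none in fewer. Among the other neuronal regions 8.39% were higher in all 9 types, and among all regions tested 5.02%. The members count neurons as 1 of these types by choice.

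The size of the difference in tanycytes followed the rank in neurons only loosely. The 100 members with the highest neuron values had a log2 ratio of 1.04 (1.01 to 1.07) in tanycytes and 0.86 (0.74 to 0.98) in OPCs. The last 100 had 0.73 (0.70 to 0.76) in tanycytes and 0.54 (0.42 to 0.66) in OPCs. In neurons the values were 2.34 for the first and 1.45 for the last 100. The tanycyte values between these ends were 0.97, 0.78 and 0.86 and so did not decline at every step.

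Members could be set apart by their state in the control library. The 74 that were neuronal there too had the larger ratio in tanycytes, 1.21 (1.17 to 1.25), with 0.403 per 1000 in the deficient and 0.174 in the control library. The 426 others had 0.83 (0.82 to 0.85). Those 426 took 6.64 per 1000 in deficient and 1.87 in control neurons, and 5.16 in deficient and 3.19 in control OPCs. The 167 members at which control neurons lay below other control cells took 2.34 per 1000 in deficient and 0.567 in control neurons. Their log2 ratio in tanycytes was 0.64 (0.62 to 0.66), below that of the full set. Members with and without an OPC excess in the control library had like ratios in all tanycytes, 0.88 (0.86 to 0.90) for 182 members and 0.87 (0.86 to 0.89) for 318. Control values enter both the grouping and the ratios, so these are descriptions.

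Member regions were also counted in each neuron. These neurons chose the members, so a higher mean in deficient neurons follows from the rule, and the counts are a description. After each neuron was thinned to 2000 detections, which left out 560 deficient and 280 control neurons, a deficient neuron held 17.1 ± 9.31 member regions (mean ± SD over 1960 cells) and a control neuron 4.99 ± 3.91 (602 cells). The median was 16 in deficient and 4 in control neurons. The 5th to 95th percentiles were 4 to 35 in deficient and 1 to 13 in control neurons, so the distributions overlapped. Of deficient neurons 68.1% held more than 11 member regions, as did 8.14% of control neurons. The cut of 11 was the 90th percentile of control neurons, so their low share was set by the choice of cut. The variance over the mean, which would be near 1 if all cells were alike, was 5.08 in deficient and 3.06 in control neurons. This measure and the SD rise with the mean when cells differ. The SD over the mean was 0.545 in deficient and 0.783 in control neurons, but counting error alone makes it fall as the mean rises. It therefore does not tell whether deficient neurons differed less among themselves. On the other neuronal regions, at nearly equal means, the variance over the mean was 15.5 in deficient and 22.5 in control neurons, and the SD was 50.2 in deficient and 60.6 in control neurons.

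**Figure D4:**
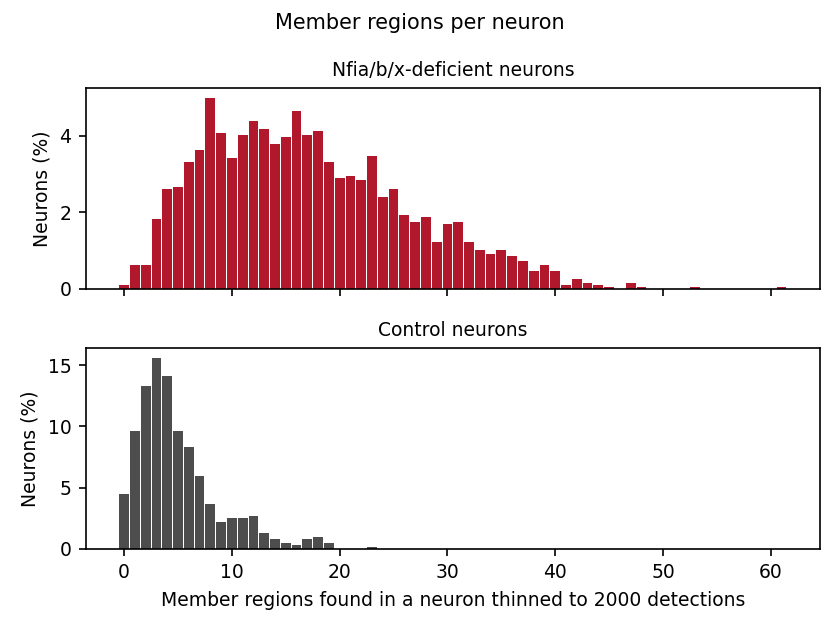
Share of neurons (vertical axis, percent) by the number of member regions found after thinning each neuron to 2000 detections (horizontal axis), for 1960 deficient (top) and 602 control neurons (bottom). Deficient neurons spread from 0 to 61 around a median of 16, and control neurons peak at 3 with a tail that reaches 23. Values in these neurons chose the members.

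In tanycytes too the count per cell was higher and its variance over the mean larger in the deficient library. In deficient alpha2 tanycytes thinned the same way, a cell held 6.53 ± 3.42 member regions (4574 cells), and in control alpha2 tanycytes 3.55 ± 2.00 (4031 cells). The variance over the mean was 1.80 in deficient and 1.13 in control alpha2 cells, and 1.83 in deficient and 1.11 in control beta1 cells. The SD over the mean was 0.525 in deficient and 0.564 in control alpha2 cells, and 0.567 in deficient and 0.562 in control beta1 cells. Counting error alone makes it fall as the mean rises, so it does not tell whether the spread between cells was larger. The other neuronal regions had a larger variance over the mean in deficient tanycytes as well: 4.99 in deficient and 3.01 in control alpha2 cells, and 4.28 in deficient and 2.05 in control beta1 cells. More than 6 member regions were found in 44.4% of deficient and 7.84% of control alpha2 tanycytes. For the other neuronal regions, 38.7% of deficient and 9.92% of control alpha2 tanycytes held more than 64. The cuts of 6 and 64 were again the 90th percentiles of the control cells, so the low control shares were set by them. Among alpha2 cells whose nearest profile was alpha2, the variance over the mean was 1.61 in deficient and 1.12 in control cells. In OPCs it was 2.91 in the deficient and 2.03 in the control library, with a median of 12 member regions in deficient and 7 in control cells. Deficient proliferating tanycytes held 9.54 ± 4.31 (968 cells) and control ones 3.45 ± 1.78 (51 cells).

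The members, chosen in these same neurons, were higher in deficient neurons at every depth, which is again a description. The log2 ratio was 1.32 (1.23 to 1.41) in neurons with fewer than 2000 detections, 1.75 (1.69 to 1.82) from 2000 to 4000, 1.86 (1.80 to 1.93) from 4000 to 6000 and 1.76 (1.71 to 1.80) at 6000 or more. It was smallest in the shallowest neurons, where the level was 7.01 per 1000 in deficient and 2.80 in control neurons.

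Neurons of both libraries were then clustered on the 61873 tested regions that are not members. With 6 clusters, every cluster held neurons of both libraries, although in unequal numbers. The members were higher in deficient neurons within each of the 6. These same neurons chose the members, so the levels within clusters are a description, although the clusters were made without the members. The cluster with the highest level had 11.4 per 1000 in its 861 deficient neurons (11.3 to 11.6) and 6.31 in its 77 control neurons. The lowest had 2.52 per 1000 in 60 deficient neurons (2.24 to 2.81) and 1.36 in 176 control neurons (1.28 to 1.45). Between these, the levels were 9.75 per 1000 in deficient and 4.24 in control neurons of cluster 5, and 6.38 in deficient and 3.72 in control neurons of cluster 3. Cluster 4 had 5.43 in deficient and 2.23 in control neurons, and cluster 2 had 4.17 in deficient and 2.24 in control neurons. Levels thus differed between clusters of a library as well as between libraries within a cluster, and the members were most open in the same 3 clusters of either library.

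Within clusters the log2 ratio was 0.78 (0.66 to 0.90) to 1.29 (1.23 to 1.34), below the 1.76 of all neurons pooled. With each cluster weighted by its number of control neurons, the level was 5.05 per 1000 in deficient and 2.56 in control neurons, a log2 ratio of 0.98. The largest within-cluster ratio, 1.29, was in cluster 4, whose neurons were the deepest (medians of 5841.5 detections in deficient and 6469 in control neurons). Only 36.3% of the deficient and 29.8% of the control neurons of that cluster were given the neuron profile. Doublets were not called here, and the part of mixed nuclei in that cluster was not tested. In the cluster with the highest member level, 82.3% of deficient and 58.4% of control neurons were given the neuron profile, and in the lowest all were. With 4 clusters, 1 cluster of 1037 deficient neurons held no control neuron and had 10.5 per 1000, and the other 3 had log2 ratios of 0.67, 0.83 and 1.54.

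**Figure D5:**
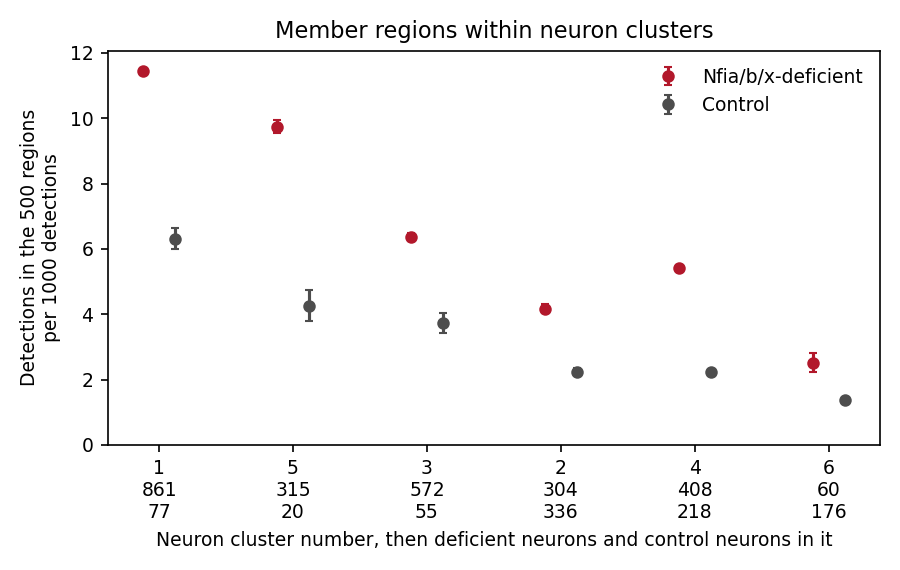
Detections in the 500 members per 1000 detections in deficient (red) and control (grey) neurons of 6 clusters made without the members, ordered by the control level, with exact 95% intervals; numbers under the axis give the cluster and its deficient and control neurons. In every cluster the deficient value is higher, and levels run from 11.4 to 2.52 in deficient and from 6.31 to 1.36 in control neurons. The same neurons chose the members.

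Neighbouring row numbers were rare among the members: 8 of 500 (1.60%) had another member on an adjoining row, as did 4 of the next 500 neuronal regions (0.800%) and 18 of the last 500 (3.60%). Whether adjoining rows adjoin on the genome is not given in the files.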

How the data were processed

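The authors deposited a matrix of regions by cells that records presence or absence with no fragment counts or scores, and an annotation giving each cell its library and type. Per the labels, reads went through Cell Ranger ATAC 1.1.0. The submitters' processing notes name mm10 as the build and Cell Ranger 3.1, Signac 0.2.5, Seurat and MACS2 as tools. How regions were called, cells filtered and doublets treated is not given there. The matrix names no cells, so its columns were taken in the annotation's order. Presence saturates at 1 per cell, which understates widely open regions.

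Members, comparison sets and measures were chosen with earlier results of these data known. The planned naming rule allows the row numbers of the 2 members highest in neurons and the 2 lowest in tanycytes. Detections were summed by type and library, and ratios have exact conditional binomial intervals. Neurons were clustered by latent semantic indexing (15 of 16 components, leaving out 1 that tracked depth) and k-means. Functions were tested on simulated data. Python 3.11.15, numpy 2.4.6, scipy 1.17.1, pandas 2.3.3, scikit-learn 1.9.0 and matplotlib 3.10.9 were used.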

Additional observations from a re-analysis of the deposited data

Results flagged for a closer look

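Among the 500 members, 3 were lower in deficient than in control tanycytes, and the lowest of these are listed because their direction was the opposite of that in neurons. The difference between the cell types was not tested. Region 50729 had 14.3 CPM in deficient neurons (12.1 to 16.9) and 4.25 CPM in control neurons (2.43 to 6.91). In all tanycytes it had 8.21 CPM in the deficient (7.42 to 9.06) and 10.2 CPM in the control library (9.25 to 11.2), a difference of -0.20 on the log2(CPM + 5) scale. Its level was highest in alpha1 tanycytes, with 18.7 CPM in deficient (14.1 to 24.4) and 28.6 CPM in control cells (22.1 to 36.4). It was higher in 3 of 9 types of the deficient library.

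Region 24156 had 11.1 CPM in deficient neurons (9.10 to 13.4) and 2.92 CPM in control neurons (1.46 to 5.23). In all tanycytes it had 2.69 CPM in the deficient (2.25 to 3.19) and 3.15 CPM in the control library (2.64 to 3.72), a difference of -0.083, and the intervals of the levels overlapped. In alpha1 tanycytes it was found in 7 of 669 deficient and 22 of 473 control cells.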

How the results depend on the processing

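No paired analysis was possible because each genotype had 1 library, and for the same reason no library could be left out. The log2 ratio of the summed members in neurons, 1.76, was 1.81 in cells with at least 2000 detections, 1.93 in cells whose nearest profile gave their own type, 1.71 with median-of-ratios scaling and 1.33 when chosen in a random part of the cells. That in all tanycytes, 0.87, was 0.89 with cells thinned to 2000 detections, 0.85 in cells of their own profile, 0.79 with median-of-ratios scaling and 0.77 when chosen in a part. Intervals lay above 0 in 8 of 8 other types. In cells of their own profile they did so in 5, while those of astrocytes and ependymal cells included 0. Proliferating tanycytes had no value there, since no control cell was left. The profiles include the members, so keeping cells by their profile was not independent of these ratios. The median member difference in neurons, 1.08, was 1.12 in deeper cells, 1.15 thinned, 1.21 in cells of their own profile, 1.05 with median-of-ratios scaling and 0.90 when chosen in a part. It was 1.65 with a pseudocount of 1 and 0.79 with one of 10. Members past 2-fold, 342, were 58 with a pseudocount of 10 and 194 when chosen in a part. The ratio per neuron thinned to 2000 detections, 1.77, was 0.98 as a mean of 3 of 4 clusters, the other cluster holding no control neuron. It was 1.03 as a mean of 6 clusters, or 1.05 with these weighted by control neurons, which was added after seeing the data. Also added were the exchange of the parts (1.43 in place of 1.33), a minimum of 25 in them (1.39), the removal of shared barcodes, which moved no ratio beyond its interval, and thinning of the comparison sets. Thinned, the mirrored set had -2.44 in neurons and -0.96 in tanycytes, and the other neuronal regions -0.013 and 0.35; the value in neurons changed sign from 0.018, and the cause was not tested. Of the 500 members the rule kept 162 with a minimum of 200 detections, 318 with a pseudocount of 1, 313 with no asked excess in neurons, 148 with an excess of 1, 274 with thinned cells and 74 when the excess was asked in both libraries. Single members with few control detections are limited by depth.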
